A study of Mus musculus with 12 samples.

Results

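Mup3, Mup18, Mup20 and Mup21 are 4 of the 24 genes with a Mup symbol among the 16821 genes listed for these mouse livers. They were chosen by their symbols, with earlier results of the same data known, and the rule that names them states no measured threshold. Their differences between the groups are therefore given as a description of these mice and not as independent evidence. All 4 symbols and gene identifiers (17842 for Mup3, 100048884 for Mup18, 381530 for Mup20 and 381531 for Mup21) were found in the RefSeq gene table, and all 4 passed the filter on low values (6 or more mice at 1 FPKM or above). FPKM is a sequencing level corrected for gene length (fragments per kilobase) and for the mapped fragments of the library, so levels of different genes can be compared.

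Major urinary proteins are small secreted lipocalins, barrel-shaped carriers that hold volatile pheromones. In male mice the liver makes them in large amounts, the blood carries them to the kidney, and they pass into urine as scent signals. Growth hormone, testosterone, thyroid hormone and glucocorticoids are known to raise their transcripts in liver, and the genes lie in a cluster of recent duplicates on chromosome 4. Mup20 encodes darcin, the protein pheromone by which females learn and prefer the scent of a male.

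The study asked how the liver transcriptome responds to long-term running in healthy adult animals. Adult male C57BL/6J mice, bought at 8 weeks of age and adapted for 1 week, stayed sedentary (Con, 6 mice) or ran on a treadmill for 6 weeks, 60 min per day on 5 days per week (Exe, 6 mice). Both groups were wild type, and liver perfused with saline was collected within 24 h of the last run. The study screened samples for outliers by principal component analysis before choosing these mice. All p-values rest on the spread among these 12 mice.

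The members fell into 2 kinds by sequence, which matters because a read that matches several Mup genes cannot be given to 1 of them. In the GENCODE M21 transcripts, no 150-base window (the read length) of Mup3 or Mup21 had an exact copy in another Mup transcript. Of the windows of Mup20, 31.1% had a copy, all of them in the pseudogene Mup-ps19. Mup18 differed from these, with 86.3% of its windows repeated in 15 other Mup genes, and 515 of its 781 windows were found in Mup19. Over the aligned part of the transcripts, with gaps inside it counted as differences, Mup18 was 99.4% identical to Mup22. It was 99.2% identical to Mup16 and 99.0% to Mup19, but 85.4% to Mup3. Mup3 and Mup21 were 95% identical to each other. How the authors divided shared reads is not given in the sources used here, so the FPKM of Mup18 cannot be told apart from that of its near copies.

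Among the promoters found, that of Mup18 also stood apart from those of Mup3 and Mup21, and Mup20 had none to compare. RefSeq promoters (build GRCm38.p6, minus strand) were found for 3 of the 4 members, and for each the stretch that ends in the TATA-type box TATATAA, printed in capitals, is shown because the A-rich run before it differs between the members. The stretches lie at chr4:61674116-61674222 for Mup18, chr4:62087322-62087428 for Mup3 and chr4:62150843-62150949 for Mup21.
Mup18: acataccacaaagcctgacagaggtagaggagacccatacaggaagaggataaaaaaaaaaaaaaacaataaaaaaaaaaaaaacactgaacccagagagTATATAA
Mup3: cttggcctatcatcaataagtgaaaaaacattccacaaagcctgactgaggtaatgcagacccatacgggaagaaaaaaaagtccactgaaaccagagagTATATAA
Mup21: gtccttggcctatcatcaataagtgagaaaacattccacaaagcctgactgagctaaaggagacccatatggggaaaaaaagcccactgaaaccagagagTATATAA

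In Mup18 the longest runs of A held 15 and 14 bases. The longest runs held 8 and 6 bases in Mup3, and 7 and 4 bases in Mup21. Promoters ran from 250 bases before to 50 after the listed start. Over the part that aligned, with gaps inside it counted as differences, Mup3 and Mup21 were 93.3% identical (277 of 294 aligned bases, 3 gap bases). Mup18 was 78.8% identical to Mup3 (223 of 255, 28 gap bases) and 76.8% to Mup21 (215 of 249, 31 gap bases). All motifs were searched as exact letters on both strands, N being any base. TATATAA was present in 13 of 14 Mup promoters against 3.22% of 32544 promoters. CCAAT, the letters of the CCAAT box, was present in Mup18 but not in Mup3 or Mup21, in 6 of 14 Mup promoters and in 37.36% of all. The other letters searched were TTCNNNGAA (8.33% of all promoters), TGTTTAC (3.66%), TTGCGCAA (0.18%) and GTTAAT (7.13%), and each was in 0 of 14 Mup promoters. In Mup18 the CCAAT began 243 bases before the start and TATATAA 28 bases before it, so they did not overlap. TATATAA began 11 bases before the listed start in Mup3 and 8 bases before it in Mup21. The promoters compared are therefore shifted against each other relative to this box. A match is only a string of letters.

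By neighbouring protein-coding genes, Mup18 lies between Mup17 and Mup19. Mup5, Mup20, Mup3, Mup21 and Zfp37 follow each other in that order elsewhere in the cluster. The 3 members that lie together are those with the least sharing of windows.

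The members differed widely in level. Ranked by mean FPKM among all listed genes, Mup20 was at place 10, Mup3 at 16, Mup21 at 103 and Mup18 at 260. Mup20 exceeded Mup3 in 11 of 12 mice, by 0.948 to 1.94 times (median 1.35), and Exe 2 was the mouse in which it did not, so the ranges of these neighbours overlapped. Mup3 exceeded Mup21 in all 12 mice, by 8.40 to 11.97 times. Mup21 exceeded Mup18 in all 12 mice as well, by 1.43 to 4.49 times, although the ranges of the 2 genes overlapped across mice. Together the 4 genes made up 2.76% ± 0.205 (SD, n = 6) of summed FPKM in Con mice and 2.61% ± 0.347 in Exe mice.

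Mup20, the darcin gene, ranged in Con mice from 9962 FPKM, with a median of 11783, to 13794. In Exe mice the lowest value was 7446, the median 11309 and the highest 13209. The groups overlapped in most mice, with Exe 2 (7446) and Exe 6 (9096) below every Con mouse. The means were 11781 ± 1308 and 10798 ± 2212 FPKM (SD, n = 6), and the log2 fold change, Exe against Con, of FPKM + 1 was -0.15 (SE 0.14, limma adjusted p = 0.931), or -0.044 without Exe 2.

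Mup3, whose transcript shares no window with another Mup gene, ranged from 7123 through a median of 8425 to 10365 FPKM in Con mice. In Exe mice it ranged from 6956 through 8238 to 9824 FPKM. Exe 3 and Exe 5 lay just below every Con mouse and Con 5 above every Exe mouse, and the others overlapped. The log2 fold change was -0.07 (SE 0.11, limma adjusted p = 0.959), and it was 0.051 after quantile normalization, so no direction can be given for Mup3.

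Mup21, the neighbour of Mup3, ranged from 816 through a median of 921 to 1061 FPKM in Con mice and from 656 through 793 to 1034 in Exe mice. Exe 2, Exe 3 and Exe 5 lay below every Con mouse, and Exe 4 lay among the highest Con values. The log2 fold change was -0.22 (SE 0.11, limma adjusted p = 0.811), beside a within-group SD of 0.20 on the log2 scale, and Mup21 did not pass.

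Mup18, the member that shares most of its sequence, showed the largest difference of the 4. In Con mice it was at 382 FPKM in the lowest mouse, 422 at the median and 743 in the highest, which was Con 6. In Exe mice it was at 146 in Exe 2, 239 at the median and 408 in Exe 6. Of the 6 Exe mice, 5 were below every Con mouse, and Exe 6 alone lay in the Con range. The means were 490 ± 138 and 263 ± 95.33 FPKM (SD, n = 6), a ratio of 0.538, or 0.586 without Exe 2. The log2 fold change was -0.93 (SE 0.23), with a limma adjusted p of 0.5805 over all genes tested, so Mup18 did not pass. The exact two-sided permutation test of this gene on its own gave p = 0.00433, where all divisions of the mice into 2 groups of 6 allow no p below 0.002165.

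**Figure D1:**
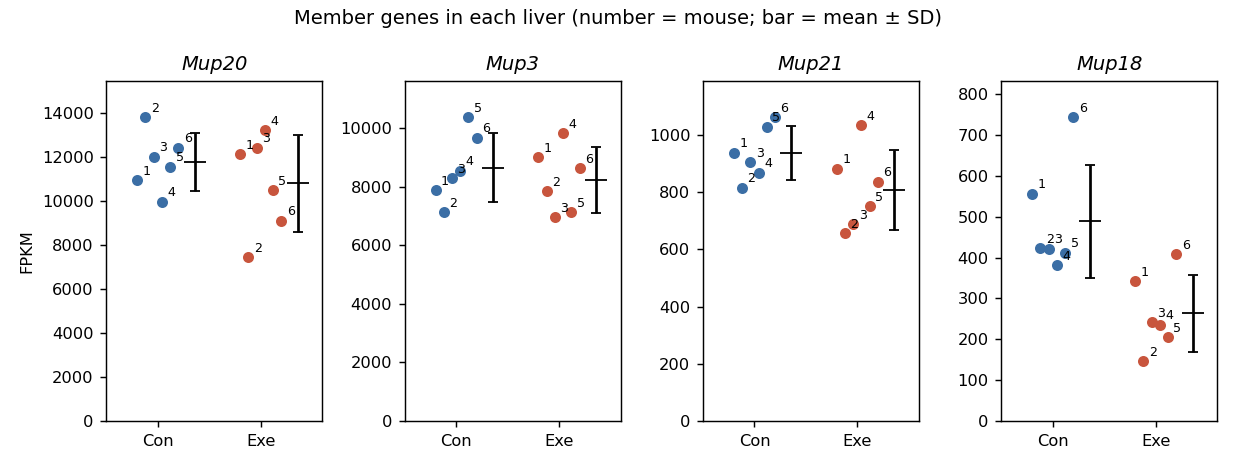
FPKM of Mup20, Mup3, Mup21 and Mup18 in each liver, with Con mice in blue and Exe mice in red, numbered by mouse, each axis starting at 0, and bars for mean ± SD. For Mup18, 5 of the 6 Exe mice lie below every Con mouse, while the groups overlap for Mup20 and Mup3.

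Across all genes, 0 of 10241 passed a limma adjusted p of 0.05 together with a size of log2 fold change above 1, cutoffs that the study applied to another test, DESeq, which needs counts, which is 0%. At an unadjusted p under 0.05, 636 genes were counted, of which 199 (1.94%) were lower and 437 (4.27%) higher in Exe mice. Scaling each mouse without any Mup gene turned this balance, to 480 lower and 168 higher. Against the 1.94%, 1 of the 4 members, Mup18, was lower at that level. The median log2 fold change of the members was -0.18 and that of all genes tested 0.02.

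The difference of Mup18 from the other members was also taken within each mouse, as the log2 ratio of 2 members. These 6 ratios were chosen after the values had been seen. The 3 that hold Mup18 share its values, so their p-values describe these mice and are not further evidence on Mup18. Adjusted over the 6 ratios, the exact permutation p was 0.0390 for each of those 3 and 0.0487 for Mup21 to Mup3. The log2 ratio of Mup18 to Mup3 was -4.17 ± 0.37 in Con and -5.04 ± 0.48 in Exe mice, a difference of -0.86 (SE 0.25, exact permutation p = 0.00866). It was lower than in every Con mouse in 5 of 6 Exe mice. Against Mup20 the difference was -0.79 (exact permutation p = 0.0195), and against Mup21 it was -0.71 (exact permutation p = 0.0130). Without Exe 2 the 3 differences were -0.72, -0.73 and -0.61 (exact permutation p = 0.0152, 0.0368 and 0.0217). For Mup21 to Mup3 the difference was -0.15 (exact permutation p = 0.0325), and p was 0.0671 by the same exact test without Exe 2. The ratios of Mup20 to Mup3 and of Mup21 to Mup20 differed by -0.07 and -0.08 (exact permutation p = 0.680 and 0.582).

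Exe 2 stood low across the family. All 24 Mup genes together were 22.2% ± 2.80 (SD, n = 6) of summed FPKM in Con mice and 17.3% ± 3.75 in Exe mice, and 10.4% in Exe 2. Among the 22 Mup genes tested, Exe 2 held the lowest value of 3 of the 4 members and of 16 of the 18 others, while it was the lowest mouse for 4.98% of all genes tested. As a percentage of the mean of Con mice, Mup3 was at 90.8 in Exe 2, Mup21 at 70.1, Mup20 at 63.2 and Mup18 at 29.9, against a median of 33.4 for the 18 other Mup genes. The members did not share the low level of Exe 2 to one extent. The share of the members in all Mup FPKM was 12.6% ± 1.74 in Con mice and 15.6% ± 3.31 in Exe mice, with 21.03% in Exe 2.

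**Figure D2:**
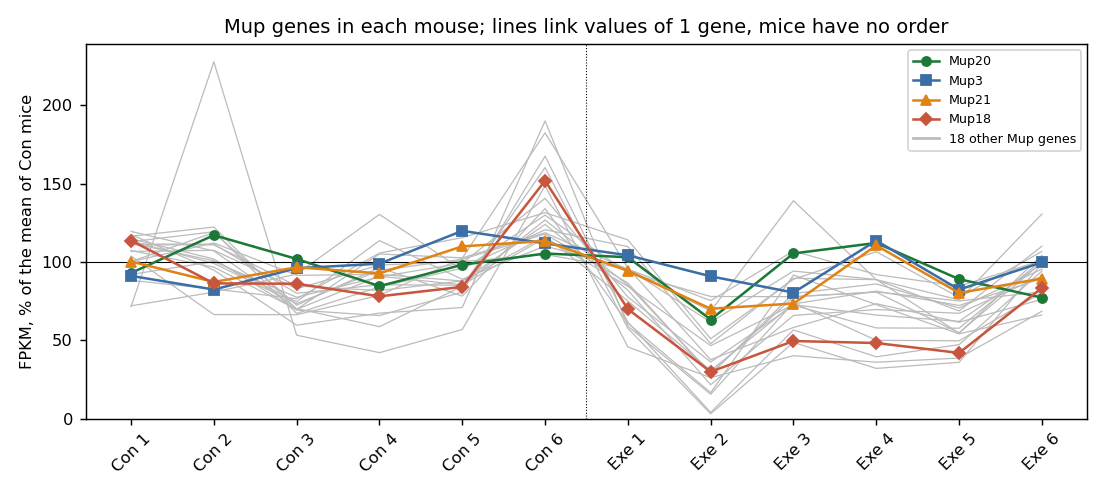
FPKM of each Mup gene in each mouse as a percentage of its mean in Con mice, with the 4 members in colour and the 18 other tested Mup genes in grey; lines link values of 1 gene and the mice have no order. In Exe 2 Mup3 stays at 90.8% while Mup18 is at 29.9%, close to the median of the grey lines at 33.4%.

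The remaining Mup genes give the setting for the members. All 18 of the others that were tested had a log2 fold change below 0, with a median of -0.53. They ranged from -1.59 (Mup17) to -0.04 (Mup10). At an unadjusted p under 0.05, 10 of 18 were lower, against 1.94% of all genes tested. Of all genes tested, 42.5% had a log2 fold change below 0. Without Exe 2 the median of the 18 was -0.34, Mup17 was at -0.91 and Mup10 at 0.062, with 17 of 18 below 0. Mup10 was also above 0 without Con 6, without Exe 5 and when scaled without the members, so no direction can be given for it. None of the 18 passed with adjustment. Mup22, the most abundant of them (place 2 of all genes), was at 35698 ± 3266 FPKM in Con and 33021 ± 4062 in Exe mice. Mup4 and Mup5, which are known from glands of the head rather than liver, did not pass the filter, with means of 0.0683 and 0.162 FPKM.

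Sharing of sequence was set beside these differences. The 14 genes with 72.4% to 100% of windows shared, Mup18 among them, had a median log2 fold change of -0.53, and the 8 with 0% to 45.6% had a median of -0.28. The 2 ranges overlapped, from -1.37 to -0.04 and from -1.59 to -0.07. This division was made after the values had been seen, and the part of shared reads was not tested. Besides Mup3 and Mup21, Mup6 shared no window, and it was at 40.8 ± 4.83 FPKM in Con and 28.7 ± 8.35 in Exe mice, with 5 of 6 Exe mice below every Con mouse (log2 fold change -0.55, limma adjusted p = 0.793).

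**Figure D3:**
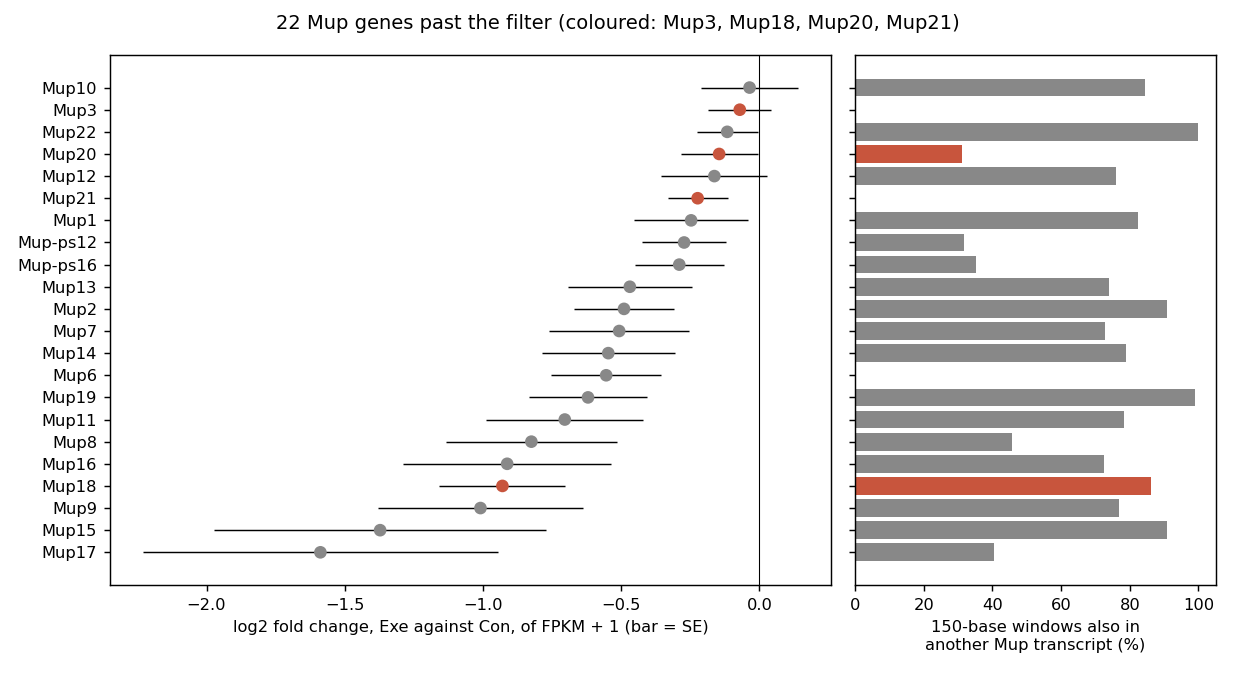
Left, log2 fold change of FPKM + 1, Exe against Con, with its SE for the 22 Mup genes tested; right, the percentage of 150-base windows of each transcript that also occur in another Mup transcript (members in red). Mup3, Mup20 and Mup21 lie at -0.07, -0.15 and -0.22 on the left and share 0% to 31.1% of windows, and Mup18 lies at -0.93 and shares 86.3%. Outside the members, Mup22 lies at -0.12 and shares 100%, and Mup17 lies at -1.59 (-0.91 without Exe 2) and shares 40.4%. The part of shared reads in these differences was not tested.

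Across the 12 mice, Mup3 and Mup21 moved together. Of 10 relations computed (6 pairs of members, and each member with the mean of 17 acute-phase genes), theirs alone passed. Pearson's r was 0.81 (permutation p = 0.00164, adjusted 0.0164) and Spearman's rho was 0.81 (permutation p = 0.00199, adjusted 0.0199). Within the groups r was 0.87 in Con mice and 0.87 in Exe mice (exact permutation p = 0.0319 and 0.0333). Without Con 5 and Exe 3, the mice farthest from the median of Mup3, r was 0.72 (permutation p = 0.0186). The adjusted permutation p was 0.0519 without Con 5, 0.0524 without Con 6 and 0.0639 without Exe 3, so the call rests in part on each of them. At a window of 100 bases, Mup3 and Mup21 shared 26 windows with each other, 3.1% of those of Mup3 and 4.5% of those of Mup21. The part of shared reads in this relation was not tested.

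Mup18 and Mup21 had an r of 0.70 (adjusted permutation p = 0.0549), and rho was 0.57 (adjusted 0.184). Without Exe 2 and Exe 5, the mice farthest from the median of Mup18, r was 0.44. Leaving out Exe 2 alone gave 0.55 and Exe 5 alone 0.67, whereas without Exe 4 r was 0.89 and passed (adjusted permutation p = 0.0032). The relation also passed when each mouse was scaled without any Mup gene (r of 0.76, adjusted permutation p = 0.0192). Mup20 was not tied to another member in this test, with r of 0.12 to Mup3, 0.43 to Mup18 and 0.51 to Mup21. Between Mup3 and Mup18 r was 0.36. The acute-phase genes encode liver proteins released in inflammation, and their mean level had an r of -0.58 with Mup3 (adjusted permutation p = 0.179), the largest in size of the 4 members. Of the 17 acute-phase genes, 15 had a log2 fold change below 0 (42.5% of all genes tested). At an unadjusted p under 0.05, 0 of them were lower (1.94% of all genes tested).

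The gene most like Mup3 among the 10237 compared was Cyp4a12a, a male-biased fatty acid hydroxylase, with an r of 0.91 over 12 mice and 0.92 without Exe 2. Cyp4a12a was at 178 ± 36.5 FPKM in Con and 165 ± 32.6 in Exe mice. Zdhhc6 and Ndufaf6 followed (r of 0.84 each). For Mup18 the nearest genes were Mup19 (0.94), Rarres1 (0.90) and Mup16 (0.89), and 11 of its 20 nearest genes were Mup genes. For Mup20 they were Sdf2 (0.88), Map1lc3b (0.86) and Gm17768 (0.85), and for Mup21 Proca1 (0.85), Mup13 (0.81) and Sel1l3 (0.80). Other Mup genes made up 2 of the 20 nearest for Mup20, 2 for Mup21 and 0 for Mup3. These values are the highest among many genes and carry no test. Of 150-base windows, Mup18 shares 86.3% with other Mup genes, and Mup3 shares none. The part of shared reads in these relations was not tested.

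**Figure D4:**
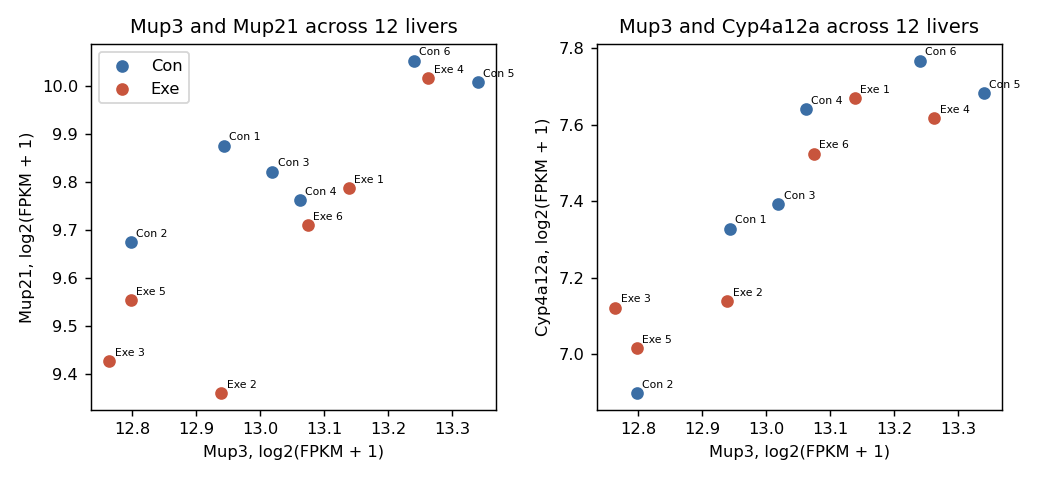
Log2(FPKM + 1) of Mup21 and of Cyp4a12a against that of Mup3 in each of 12 livers, Con in blue and Exe in red. Mup21 is higher where Mup3 is higher, with r = 0.81, and so is Cyp4a12a, with r = 0.91, with both groups spread along the range.

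Receptors and transcription factors placed upstream of Mup genes were listed from general knowledge. At an unadjusted p under 0.05, 0 of 19 passed in either direction, against 1.94% lower and 4.27% higher of all genes tested. Ghr, the growth hormone receptor, was at 168 ± 21.2 FPKM in Con and 165 ± 18.9 in Exe mice. Stat5b, the factor that carries its signal, was at 11.1 ± 1.81 and 12.1 ± 1.88 FPKM. Zhx2, a transcription factor, was at 3.83 ± 0.415 and 4.21 ± 0.512 FPKM.

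Of the male-biased growth hormone targets, 12 of 14 had a log2 fold change below 0 (42.5% of all genes tested). At an unadjusted p under 0.05, 0 of 14 were lower (1.94% of all genes tested). Exe 2 was the lowest mouse for 8 of the 14, as it was for 3 of the 4 members, against 4.98% of all genes tested. Of the female-biased genes 1 was tested, Cyp17a1, at 1.85 ± 1.19 and 2.31 ± 0.832 FPKM. Of 11 growth hormone response genes 8 had a log2 fold change above 0 (57.5% of all genes tested), and the 11 ran from -0.55 to 0.67. At an unadjusted p under 0.05, 1 of them was lower (1.94% of all genes tested). It was Socs3, an inhibitor of cytokine signalling (log2 fold change -0.55, limma adjusted p = 0.793). Igf1, the growth factor made in liver under growth hormone, was at 63.8 ± 9.21 and 66.9 ± 6.43 FPKM.

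Other secreted liver proteins were set beside the members. Of 9 lipocalins outside the family 5 had a log2 fold change below 0 (42.5% of all genes tested). At an unadjusted p under 0.05, 1 of the 9 was lower (1.94% of all genes tested). It was Ambp, the precursor of alpha-1-microglobulin (3187 ± 476 FPKM in Con and 2680 ± 260 in Exe mice, limma adjusted p = 0.793). Of 16 abundant secreted proteins 15 had a log2 fold change above 0 (57.5% of all genes tested). At an unadjusted p under 0.05, 2 were higher, Alb and Apoc3, against 4.27% of all genes tested. Alb, albumin, was at 34840 ± 4856 FPKM in Con and 43908 ± 4087 in Exe mice (limma adjusted p = 0.793), and Exe 2 was the highest at 48015. Of these 16 genes, 62.5% were highest in Exe 2, against 18.7% of all genes tested. FPKM is a share within each mouse, and the part of the Mup share in these values was not tested.

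Summed hepatocyte markers (11 of 11 at a mean FPKM of at least 1) ranged from 55177 to 74441 FPKM in Con mice and from 64733 to 80574 in Exe mice, with Exe 2 highest. Red blood cell markers (5 of 7 at that mean) ranged from 235 to 903 and from 400.3 to 1290.4 FPKM, and Kupffer cell markers (7 of 7) from 145 to 269.6 and from 101 to 251. The part of cell makeup in the Mup values was not tested. In bulk liver, fewer cells of a type and less RNA per cell cannot be told apart. Summed FPKM ranged from 735200 to 820107 over the mice, and relative depth, read from the steps of 13 low genes, from 0.995 to 1.034. Only genes whose steps already agreed closely across mice were used, so this reading could not show a large difference in depth. The absolute depth is unknown.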

How the data were processed

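Liver RNA of 12 mice was sequenced as paired reads of 150 bases. The authors deposited FPKM per gene for each mouse. Per the study's methods reads were aligned with HISAT to GRCm39; the submitters' notes also name Bowtie2 and mm10, and the tool that made the FPKM values and its rule for reads with several matches are not given in the sources used here. No counts were used.

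The 10241 genes at 1 FPKM or above in 6 or more mice were tested on log2(FPKM + 1) with limma 3.58.1 in R 4.3.3 (trend, two-sided, Benjamini-Hochberg over all genes tested). Fold changes on this scale understate those of low genes. Exact permutation tests used every division of the mice into groups of the observed sizes. Correlations over all mice used 100000 resamples, and those within a group every pairing. Calculations used Python 3.11.15, scipy 1.17.1 and Biopython 1.88, and were tested on simulated data.

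The members, gene lists and tests were chosen with earlier results of these data known. Named were the members, all Mup genes, the 3 most abundant genes of each list and those at an unadjusted p under 0.05, 7 named regulators, and the 3 genes nearest to each member. Only some of these are printed, and 1 regulator is not reported here. Transcripts came from GENCODE M21 (the RefSeq-linked transcript of each gene, a choice made after identities had been seen) and promoters from RefSeq GRCm38.p6, a build other than that of the reads. Motif letters are exact strings.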

Additional observations from a re-analysis of the deposited data

How the results depend on the processing

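No gene passed both thresholds under any alternative. Genes at an unadjusted p under 0.05 numbered 418 to 910 when 1 mouse was left out, with 418 without Exe 2, against 636. The log2 fold change of Mup3 turned to 0.051 under quantile normalization. The share of those genes that were higher in Exe mice was 68.7%, and 56.8% with quantile normalization, 87.3% scaled without the members and 25.9% scaled without any Mup gene, a scaling chosen after seeing the data that moved the median of all genes by -0.04 on the log2 scale. Under that scaling the log2 fold change of Mup18 was -0.98. The log2 fold change of Mup20 ran from -0.21 without Exe 4 to -0.044 without Exe 2. The adjusted limma p of Mup18 ranged from 0.278 to 0.999 over 20 alternatives.

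Pairs of members that passed numbered 0 to 2 when 1 mouse was left out, and 2 when scaled without any Mup gene, against 1. Without Exe 2 the r of Mup18 and Mup20 was -0.019, and it ran from there to 0.552 (without Exe 4), against 0.43. The r of Mup21 with the acute-phase mean was 0.0304 without Con 5, 0.044 without Exe 4 and 0.0452 without Exe 5, with a lowest value of -0.348 without Exe 2, against -0.0956. The cause of these changes was not tested.

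The replicate numbers showed no pairing of the mice over all genes, which cannot settle a pairing seen in some genes only. Correlations of mice with the same number ran from -0.48 to 0.16, and 1 of 6 Con mice correlated best with its own number. With the replicate block, 567 genes were at an unadjusted p under 0.05, 0 passed both thresholds, and the adjusted limma p of Mup18 was 0.278. The SE of the log2 fold change of Mup18 was 0.11 with the block, against 0.23 in the main fit.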
